A study of Mus musculus with 2 samples.

Results

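Laminin-332 is the laminin of epithelial basement membranes, and the genes described here are its chains Lama3 and Lamb3 with 7 subunits of the integrins that bind it or other matrix proteins: Itga6, Itgb4, Itga3, Itgb1, Itga5, Itgav and Itgb6. The members were chosen by symbol, and they are 9 of 55361 features in the files. Each symbol had 1 row in both matrices, and over all kept cells all 9 members passed the level at which a gene was counted as measured, a mean of at least 5 CPM (counts per 1000000 UMIs) over the compared sums.

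Laminins are secreted as assembled chains, and Lama3 and Lamb3 encode the alpha-3 and beta-3 chains of laminin-332. Integrin alpha-6/beta-4 (Itga6 and Itgb4) holds epithelial cells to this laminin in hemidesmosomes, where plectin and dystonin tie beta-4 to keratin filaments, and integrin alpha-3/beta-1 (Itga3 and Itgb1) binds the same laminin at focal adhesions. Alpha-5/beta-1 is a fibronectin receptor, alpha-v pairs with several beta chains, and alpha-v/beta-6 is an epithelial integrin that activates latent TGF-beta. In carcinomas the laminin-332 chains and beta-6 are often studied at invasive fronts, and a change from epithelial to mesenchymal state is known to alter which integrins a cell makes.

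Tumour cells of mouse pancreatic ductal adenocarcinoma were profiled as single cells. One library held unselected tumour cells and the other held cells gated as CD9hi, that is, with much surface CD9, a tetraspanin that associates with integrins in the membrane. Both came from the KPFRR line, which joins Pdx1-Flp to KrasFSF-G12D/+ and Trp53frt/frt, and also carries Rosa26FSF-creER and the Rosa26mTmG reporter. Flp is driven by the Pdx1 promoter, so recombination starts in pancreatic progenitors, and neither age, sex nor the number of mice is stated in the labels. The tumours were digested with collagenase V and TrypLE, and sorting took living cells by GFP or by CD9, with GFP+ cells as the stated input. Each group had 1 library, so there was no replicate and no test was made: a ratio is of 2 libraries, and every interval covers counting error at 95% only.

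After filtering there were 2550 whole-tumour cells with 46270361 UMIs (median 17686 per cell) and 5092 CD9hi cells with 119632120 UMIs (median 21791.5), and the libraries shared 2 barcodes. The GFP row had 0 UMIs in all kept cells of both libraries, so the sort on GFP could not be checked. Cd9 RNA was at 1273 CPM (whole tumour) and 2367 CPM (CD9hi). The 9 ductal epithelial markers had UMIs in every class described here. Acinar genes, summed over a list of 13, stood at 42607 CPM against 150 CPM in the CD9hi cells, and this difference of cell content runs through every comparison of all kept cells. The CPM of all measured genes had a median log2 ratio of CD9hi over whole tumour of 0.13, and of 0.0061 without the 453 and 5 cells high in acinar genes.

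Cells were classed by their own CPM of Epcam, an epithelial adhesion molecule, and of Vim, the mesenchymal filament vimentin, with 1500 CPM as the threshold for each. Epcam-high Vim-low cells were 1200 of the whole tumour (47.1%) and 552 of the CD9hi library (10.8%). Cells with both genes high were 186 (7.29%) and 738 (14.5%), Vim-high Epcam-low cells 395 (15.5%) and 3598 (70.7%), and cells low in both 769 (30.2%) and 204 (4.01%). The sort sets these shares, so they are not a result about the members. The classes are ranges and not types: between 1000 and 1500 CPM of Epcam lay 355 whole-tumour and 470 CD9hi cells, and between 1500 and 2000 CPM 330 and 280. For Vim the same bands held 82 and 169 cells just below and 67 and 221 just above. Krt17-high cells, at 1500 CPM or more of the keratin Krt17, were 30 of the whole tumour and 13 of the CD9hi library, with 20 and 14 cells just below the threshold and 13 and 6 just above it. Of these, 25 of 30 and 9 of 13 were also Epcam-high and Vim-low. Of 6 basal-like markers, Krt5 and Trp63 were at 0 in Krt17-high cells of both libraries, and Krt6a and Gabrp also in those of the CD9hi library, so the class is called by Krt17 alone.

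To show sequence at the annotated starts, the 250 bases before the RefSeq start of Lamb3, Itga5 and Itgb6 are printed, since these 3 members followed 3 different patterns over the classes. They are the first promoter windows of the RefSeq table for build GRCm38.p6, which is not the build of the count files. Among the members' windows, only the bases just after the Itga5 start were not found near the beginning of a GENCODE transcript of its gene. Of 9 members, 6 were matched in that table. Capitals mark GC boxes (GGGCGG or, on the other strand, CCGCCC).
Lamb3, chr1:193301744-193301993, plus strand: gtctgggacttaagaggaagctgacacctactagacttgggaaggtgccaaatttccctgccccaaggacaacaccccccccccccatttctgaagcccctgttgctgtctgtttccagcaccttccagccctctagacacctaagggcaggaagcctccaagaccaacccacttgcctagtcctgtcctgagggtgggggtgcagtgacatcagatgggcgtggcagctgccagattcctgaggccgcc
Itga5, chr15:103366792-103367041, minus strand: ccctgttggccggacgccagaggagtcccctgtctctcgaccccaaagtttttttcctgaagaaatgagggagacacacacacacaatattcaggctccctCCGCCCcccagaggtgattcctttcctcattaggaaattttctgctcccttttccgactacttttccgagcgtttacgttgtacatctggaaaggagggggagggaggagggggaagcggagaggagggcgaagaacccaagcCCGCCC
Itgb6, chr2:60722604-60722853, minus strand: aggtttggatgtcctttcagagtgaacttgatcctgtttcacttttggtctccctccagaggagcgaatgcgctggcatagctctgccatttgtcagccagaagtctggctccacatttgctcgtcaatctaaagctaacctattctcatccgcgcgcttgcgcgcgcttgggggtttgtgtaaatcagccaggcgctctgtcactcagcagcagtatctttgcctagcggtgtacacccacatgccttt
The GC content of these windows was 58.8% for Lamb3, 55.6% for Itga5 and 52% for Itgb6, against a median of 52% over all promoters of the table. Here 4 motifs were searched on both strands in windows of 250 bases, and counts are over the first window listed for each gene, in members and background alike. The AP-1 letters TGANTCA occurred in 0 of the 6 members and in 6.87% of 27025 promoters. The E-box letters CAGGTG or CACCTG occurred in 1 of 6 members, Itga3, and in 17.1% of promoters, and the TEAD letters GGAATG or CATTCC in 1 of 6, Itgb1, and in 12.6%. A GC box occurred in 3 of 6 members, Itga3, Itgb1 and Itga5, and in 32.9% of promoters. Second windows, listed for 3 members, also held an E-box in Lamb3 and Itgb6, a TEAD match in Lamb3 and a GC box in Itga3. These are matches of letters in these windows and nothing more.

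The laminin chains rose with Epcam, but in the whole tumour they also differed by Vim at like Epcam. At 1500 to 3000 CPM of Epcam there, Lama3 was 168 CPM in Vim-high and 64.6 CPM in Vim-low cells. Lamb3 was 171 and 68.7 CPM. In the CD9hi library the corresponding values were 110 and 138 CPM for Lama3 and 166 and 149 CPM for Lamb3. In the whole tumour, Lama3 was 97.9 CPM in Epcam-high Vim-low cells (95% interval 93.7 to 102), 197 CPM in cells with both genes high (182 to 212), 26.6 CPM in Vim-high Epcam-low cells (23.0 to 30.5) and 15.0 CPM in cells low in both (13.0 to 17.2). In the CD9hi library the same classes stood at 272 (263 to 282), 161 (155 to 167), 11.5 (10.8 to 12.2) and 27.0 CPM (21.7 to 33.2). Within each library none of these intervals overlapped, so the order of the classes was clear of counting error, but the class with the most Lama3 was the both-high class in the whole tumour and the Epcam-high Vim-low class in the CD9hi library.

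Lamb3 was 89.5 CPM in Epcam-high Vim-low cells of the whole tumour, 192 in both-high cells, 69.3 in Vim-high Epcam-low cells and 30.3 in cells low in both. The CD9hi values were 267, 213, 45.0 and 40.0 CPM, and only the last 2 had overlapping intervals. Lamb3 kept more of its level than Lama3 did when Epcam was low: in the CD9hi library both-high cells were above Vim-high Epcam-low cells by 2.24 on the log2 scale for Lamb3 (2.18 to 2.31) and by 3.80 for Lama3 (3.70 to 3.91). In the whole tumour these differences were 1.47 (1.30 to 1.64) and 2.88 (2.66 to 3.12).

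**Figure D1:**
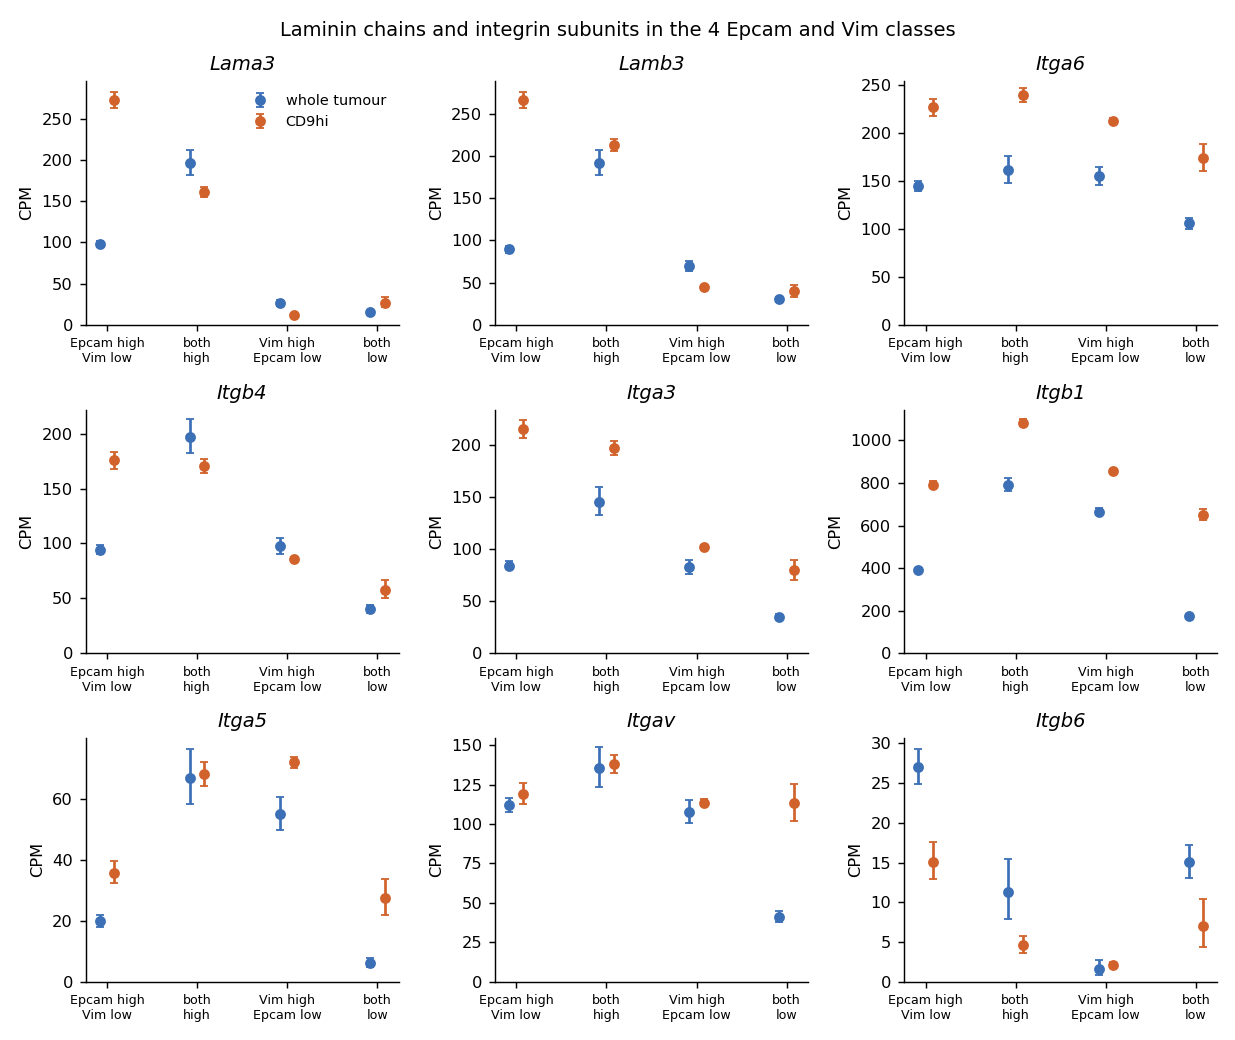
Level of each member (CPM of summed UMIs, linear axes from 0) in 4 classes of cells, whole tumour in blue and CD9hi in orange; bars are exact 95% Poisson intervals of 1 library each. Lama3 in Epcam-high Vim-low cells stands at 97.9 and 272 CPM, Itga5 is lowest where Vim is low, and Itgb6 is lowest in Vim-high Epcam-low cells.

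Detection per cell gave the same order of the 3 classes high in Epcam, Vim or both. A Lama3 UMI was found in 57.4% of Epcam-high Vim-low cells of the whole tumour and in 85.9% of those of the CD9hi library. After thinning each cell to 5000 UMIs, which left 1134 and 537 cells, the shares were 30.8% (28.1 to 33.6) and 60.0% (55.7 to 64.1). In both-high cells the shares were 72.0% and 72.2% unthinned and 47.7% and 39.9% thinned, and in Vim-high Epcam-low cells 23.5% and 12.9% unthinned and 10.8% and 5.07% thinned. As a background, whole-tumour cells carrying acinar genes, with a median of 17649.5 UMIs, had a Lama3 UMI in 3.77% of cells, or 0.533% after thinning. In the CD9hi library the only background was 23 immune-marker cells, of which 20 could be thinned; Lama3 was in 5% of these (0.127 to 24.9), which covers the share in Vim-high Epcam-low cells. Within that class the CD9hi level of Lama3 was 0.751 CPM in cells with no Epcam UMI (0.476 to 1.13) and 28.4 CPM (26.4 to 30.4) in cells with 500 to 1500 CPM of Epcam. Lamb3 after thinning was in 31.4% and 59.2% of Epcam-high Vim-low cells, 47.1% and 52.9% of both-high cells and 19.2% and 17.5% of Vim-high Epcam-low cells, against 5.33% in the acinar-marker cells.

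The chains met in the same cells. In thinned cells of the whole tumour Lama3 and Lamb3 were found together in 10.6% of cells, against 5.47% for the product of their shares, and in the CD9hi library in 10.3% against 4.33%. Within Epcam-high Vim-low cells the values were 14.7% against 9.66% and 42.5% against 35.5%. In both-high cells they were 27.0% against 22.5% and 26.9% against 21.1%, and in Vim-high Epcam-low cells 4.72% against 2.06% and 2.41% against 0.886%. The observed share was above the product in each of these classes, but in both-high cells of the whole tumour its interval (20.6% to 34.3%) covers the product. The cells share a library and vary in Epcam within a class.

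Between the libraries, the chains differed in opposite directions by class. In Epcam-high Vim-low cells Lama3 was 2.78-fold and Lamb3 2.98-fold higher in the CD9hi library, log2 ratios of 1.48 (1.40 to 1.56) and 1.57 (1.49 to 1.66). In Vim-high Epcam-low cells both were lower there, by log2 ratios of -1.21 (-1.43 to -0.98) and -0.62 (-0.75 to -0.49). In both-high cells the ratios were -0.29 and 0.15, neither past the 1.5-fold rule of size used here. Over all kept cells these met at -0.28 for Lama3 and 0.22 for Lamb3.

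The classes were not matched for Epcam between the libraries. Epcam itself was 2991 CPM in Epcam-high Vim-low cells of the whole tumour and 4198 CPM in those of the CD9hi library, and 553 and 345 CPM in Vim-high Epcam-low cells. Among the latter, 40 of 395 whole-tumour cells (10.1%) but 1215 of 3598 CD9hi cells (33.8%) had no Epcam UMI. Cells were therefore also compared within intervals of Epcam, chosen after the class values had been seen. Among Vim-low cells with 1500 to 3000 CPM of Epcam, Lama3 was 64.6 CPM and, in CD9hi cells, 138 CPM (log2 ratio 1.09, 0.93 to 1.26), and with 3000 or more it was 145 and 330 CPM (1.19, 1.09 to 1.28). Lamb3 in these intervals had ratios of 1.12 and 1.41. The CD9hi excess in Vim-low cells was thus present within both intervals of Epcam, somewhat under the class value. The upper interval has no upper bound. It held 42% of the whole-tumour and 72.3% of the CD9hi Epcam-high Vim-low cells, and Epcam was not matched within it. Vim was not matched within these intervals. Whole-tumour Epcam-high Vim-low cells had a summed Vim level of 165 CPM, against 410 CPM for their CD9hi counterparts. The part of this Vim difference in the excess was not tested.

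Among Vim-high cells the ratios varied with the interval of Epcam. Lama3 stood at 6.14 and 7.27 CPM in cells with under 500 CPM of Epcam (log2 ratio 0.21, -0.42 to 0.98) and at 49.1 and 28.4 CPM with 500 to 1500 (-0.79, -1.03 to -0.55). In cells with no Epcam UMI the 2 and 23 Lama3 UMIs were too few to give a direction (-2.24, -3.96 to 1.18). For Lamb3 the ratios were -0.97 with no Epcam UMI, -0.01 with under 500 CPM and -0.31 with 500 to 1500 CPM. The lower level of the chains in CD9hi Vim-high Epcam-low cells was thus past 1.5-fold, with an interval below 0, for Lama3 at 500 to 1500 CPM of Epcam and for Lamb3 with no Epcam UMI, and neither chain was past it at under 500 CPM. In the Vim-high cells that were also Epcam-high, Lama3 was 168 and 110 CPM at 1500 to 3000 CPM of Epcam (-0.61, -0.78 to -0.43), which is past 1.5-fold, and 249 and 265 CPM at 3000 or more (0.09, -0.09 to 0.28). Lamb3 had -0.04 (-0.21 to 0.12) and 0.43 (0.25 to 0.63) there. The both-high ratio of -0.29 for Lama3 thus joins a lower CD9hi level at moderate Epcam with a level within counting error at high Epcam.

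**Figure D2:**
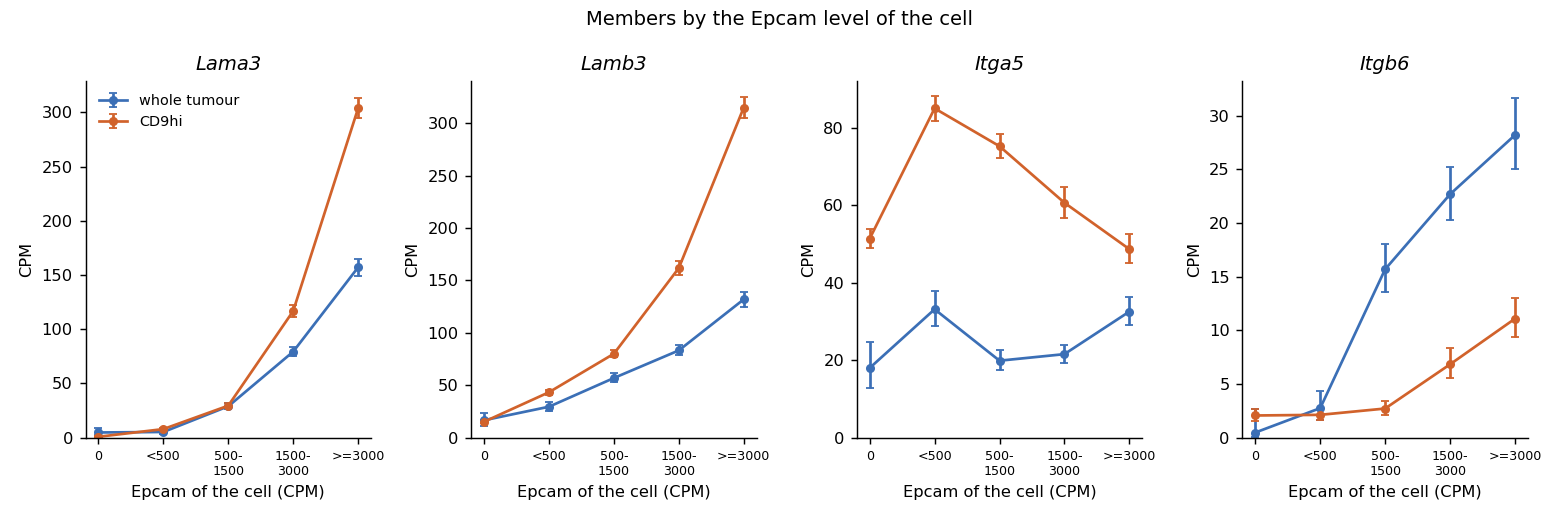
Lama3, Lamb3, Itga5 and Itgb6 (CPM of summed UMIs, linear axes) in cells grouped by their own Epcam level, at any Vim, in the whole tumour (blue) and the CD9hi library (orange); bars are exact 95% Poisson intervals. Lama3 climbs from 4.73 and 0.781 CPM in cells with no Epcam UMI to 157 and 304 CPM at 3000 CPM of Epcam or more.

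The chains of the hemidesmosome integrin followed different patterns. Itgb4, the chain particular to alpha-6/beta-4, was 94.5 CPM in Epcam-high Vim-low, 197 in both-high and 97.5 in Vim-high Epcam-low cells of the whole tumour, and 176, 171 and 86.0 CPM in the CD9hi library. The first and last of the whole-tumour values and the first 2 of the CD9hi values had overlapping intervals. Itga6, its alpha chain, was nearly level over the same classes, at 144, 161 and 155 CPM in the whole tumour and 227, 239 and 213 CPM in the CD9hi library.

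Both-high cells were above Vim-high Epcam-low cells by 1.02 for Itgb4 in the whole tumour and 0.99 in the CD9hi library on the log2 scale, and by 0.06 and 0.17 for Itga6. Between the libraries Itga6 was higher in the CD9hi cells by a similar ratio in each class, 0.65 in Epcam-high Vim-low, 0.57 in both-high and 0.46 in Vim-high Epcam-low cells. Itgb4 was 0.89, -0.21 and -0.18 in the same order, so only its Epcam-high Vim-low cells passed 1.5-fold. By interval of Epcam in Vim-low cells, the Itgb4 ratio was 0.94 at 1500 to 3000 CPM and 0.62 at 3000 CPM or more.

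Itga6 and Itgb4 were found together in 14.7% of thinned whole-tumour cells against a product of 12.3%, and in 23.0% of CD9hi cells against 21.7%. The ratio to the product has a ceiling set by the share of cells with each gene, so it was not compared with that of the laminin chains. Within classes, the pair was at 13.9% against 14.0% in Vim-high Epcam-low cells of the whole tumour and at 31.8% against 32.4% in both-high cells of the CD9hi library, so no excess was seen there. Lamb3 with Itgb4, ligand chain and receptor chain, were together in 10.99% against 7.36% and in 14.0% against 10.1%. The acinar-marker cells of the whole tumour had Itga6 in 26.1% and Itgb4 in 9.87% of thinned cells.

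Of the beta-1 integrins, Itga3, the alpha chain that binds laminin-332, followed the chains in the CD9hi library. It was 84.3 CPM in Epcam-high Vim-low cells, 146 in both-high cells and 82.9 in Vim-high Epcam-low cells of the whole tumour, and 216, 197 and 102 CPM in the CD9hi library. Itgb1, the common beta chain of alpha-3 and alpha-5 and a partner of alpha-6, was 391, 792 and 665 CPM and then 792, 1082 and 857 CPM. The highest Itgb1 was thus in both-high cells of either library, and Epcam-high Vim-low cells were below Vim-high Epcam-low cells, with log2 ratios of -0.77 in the whole tumour and -0.12 in the CD9hi library.

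CD9hi cells were above whole-tumour cells for both genes in every class. The log2 ratio of Itga3 was 1.36 (1.27 to 1.44) in Epcam-high Vim-low, 0.43 in both-high and 0.30 in Vim-high Epcam-low cells, and that of Itgb1 1.02 (0.98 to 1.06), 0.45 and 0.37. Among these classes only the Epcam-high Vim-low values passed 1.5-fold. In cells low in both genes Itgb1 was 175 CPM (whole tumour) and 652 CPM (CD9hi), also a difference past 1.5-fold. Of those cells, 398 of 769 and 3 of 204 were acinar-marker cells. Sorted by Cd9 RNA within the unsorted tumour, Itgb1 went from 76.2 CPM in 189 cells with no Cd9 UMI through 201, 400 and 670 CPM to 668 CPM in 57 cells at 5000 CPM of Cd9 or more. Itga3 went 24.7, 34.6, 85.0, 114 and 67.6 CPM over the same intervals, and Lama3 9.13, 20.9, 81.0, 123 and 23.7 CPM. Acinar-marker cells of the whole tumour had a summed Cd9 level of 159 CPM, and their part in the trend was not tested.

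Itga5, the alpha chain of the fibronectin receptor, followed Vim. In the whole tumour it was 19.8 CPM in Epcam-high Vim-low cells (18.0 to 21.8), 66.8 in both-high cells (58.3 to 76.3), 54.9 in Vim-high Epcam-low cells (49.7 to 60.4) and 6.22 in cells low in both. In the CD9hi library it was 35.7, 68.0, 71.9 and 27.3 CPM. Both-high and Vim-high Epcam-low cells had overlapping intervals in each library, and the 2 Vim-low classes stood below them. By Vim of the cell, Itga5 went 9.83, 18.2, 36.0, 50.2 and 77.8 CPM from no Vim UMI to 5000 CPM or more in the whole tumour, and 22.0, 34.7, 37.4, 63.2 and 79.1 CPM in the CD9hi library.

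Over all kept cells Itga5 was 2.67-fold higher in the CD9hi library (log2 ratio 1.42, 1.33 to 1.51). Within classes the ratio was 0.85 in Epcam-high Vim-low cells, 0.02 in both-high cells and 0.39 in Vim-high Epcam-low cells. The largest difference by ratio was in cells low in both genes, at 6.22 CPM (whole tumour) and 27.3 CPM (CD9hi). These cells were unlike between the libraries, with Vim at 81.0 and 828 CPM. Acinar-marker cells were 398 of 769 and 3 of 204 of them. The part of this in the Itga5 difference was not tested. In cells at 5000 CPM of Vim or more the libraries were at 77.8 and 79.1 CPM.

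Itgb6, the epithelial partner of alpha-v, ran the other way. It was 27.0 CPM in Epcam-high Vim-low cells of the whole tumour (24.8 to 29.3), 11.2 in both-high cells (7.91 to 15.5), 15.0 in cells low in both (13.0 to 17.2) and 1.57 in Vim-high Epcam-low cells (0.812 to 2.74, 12 UMIs). The CD9hi values were 15.1, 4.61, 6.97 and 2.11 CPM. By Vim of the cell it went 25.4, 18.5, 13.5, 4.83 and 3.66 CPM in the whole tumour and 25.9, 16.7, 5.16, 2.94 and 2.07 CPM in the CD9hi library. In cells with no Vim UMI the levels were thus close, while the CD9hi library was lower by log2 ratios of -0.83 (-1.09 to -0.59) in Epcam-high Vim-low and -1.29 (-1.87 to -0.68) in both-high cells. In Vim-high Epcam-low cells the ratio was 0.37 with an interval of -0.41 to 1.40, and the level is too low to show a direction.

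Over all kept cells Itgb6 was 18.2 and 3.80 CPM, a log2 ratio of -2.26 (-2.42 to -2.09). A UMI of Itgb6 was in 27.4% and 20.5% of Epcam-high Vim-low cells unthinned, and in 10.6% and 7.08% thinned, with overlapping intervals, against 3.73% in thinned acinar-marker cells. In thinned Vim-high Epcam-low cells Itgb6 was in 1.05% and 1.02%, below the share in acinar-marker cells. The acinar-marker cells were thus not a blank background for this gene.

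Itgav, the alpha chain that Itgb6 needs, was nearly level. It was 112, 136 and 108 CPM in Epcam-high Vim-low, both-high and Vim-high Epcam-low cells of the whole tumour and 119, 138 and 114 CPM in the CD9hi library, with log2 ratios of 0.09, 0.02 and 0.07. Cells low in both genes stood apart, at 41.1 and 113 CPM, and of these 398 of 769 in the whole tumour and 3 of 204 in the CD9hi library were acinar-marker cells, which had Itgav at 24.4 CPM in the whole tumour.

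**Figure D3:**
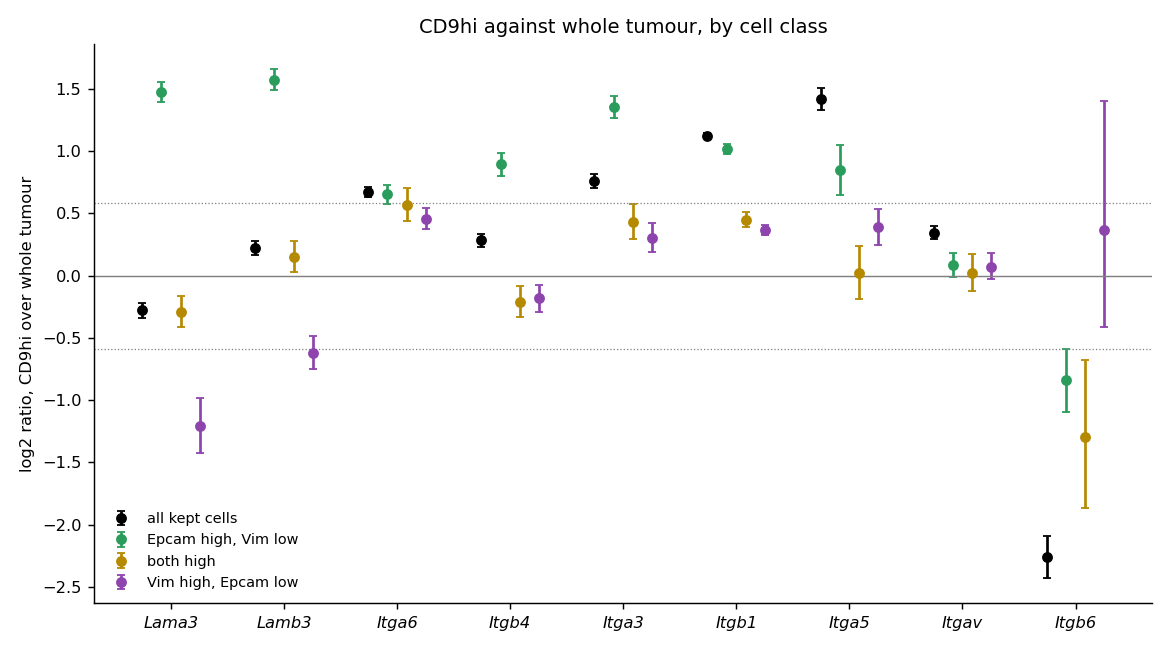
Log2 ratio of CD9hi over whole tumour for each member in all kept cells and in 3 classes, with conditional binomial 95% intervals of counting error; dotted lines mark 1.5-fold. Lama3 and Lamb3 lie above 0 in Epcam-high Vim-low cells and below 0 in Vim-high Epcam-low cells, and Itgb6 lies below 0 in all kept cells and in both classes high in Epcam.

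Counted by the 1.5-fold rule, 4 of 9 members were higher in the CD9hi library over all kept cells (Itga6, Itga3, Itgb1 and Itga5), beside 17.1% of all measured genes, and 1 was lower (Itgb6), beside 13.4%, or 30.6% either way. Relative to the median of all genes Itga6 was at 0.55, under the rule. In Epcam-high Vim-low cells 7 members were higher, all except Itgav and Itgb6, beside 11.7% of genes, and Itgb6 was lower, beside 12.3%, or 24% either way. In both-high cells 0 were higher, beside 8.39%, and 1 was lower, Itgb6, beside 9.33%, or 17.7% either way. In Vim-high Epcam-low cells 0 were higher, beside 8.89%, and 2 were lower, Lama3 and Lamb3, beside 8.61%, or 17.5% either way. Itgb6 was under 5 CPM there, which left 8 measured members. The count of higher members in Epcam-high Vim-low cells was a larger share than that of all genes, and the counts in both-high cells were near the background.

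Within the libraries, 5 of 9 members were higher in both-high than in Vim-high Epcam-low cells in each library, Lama3, Lamb3, Itgb4, Itga3 and Itgb6, beside 9.51% of genes in the whole tumour and 10.4% in the CD9hi library. Itgb6 was under the 5 CPM for a measured gene in the CD9hi comparison, at 4.61 and 2.11 CPM. None was lower, beside 6% and 8.27%, and either way the background was 15.5% and 18.7%. Epcam-high Vim-low cells against Vim-high Epcam-low cells gave 2 higher (Lama3 and Itgb6, beside 16%) and 2 lower (Itgb1 and Itga5, beside 9.78%) in the whole tumour, and 5 higher (Lama3, Lamb3, Itgb4, Itga3 and Itgb6, beside 16.5%) and 1 lower (Itga5, beside 9.89%) in the CD9hi library, with 25.8% and 26.3% of genes called either way. The comparisons of classes share the Vim-high Epcam-low cells. Fibroblast genes, summed over 8, were 168 and 189 CPM in Vim-high Epcam-low cells and 7.90 and 6.19 CPM in both-high cells, and without immune- or fibroblast-marker cells (4 in the whole tumour and 70 in the CD9hi library) the count was again 5 higher and 0 lower in each library.

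The CD9hi classes were given the whole tumour's shares of UMIs, which matches the mix of classes but not the cells within a class. Cells low in both genes held 29.2% of that weight, and 398 of 769 (whole tumour) and 3 of 204 (CD9hi) were acinar-marker cells. With this weighting Lama3 had a log2 ratio of 1.12 in place of -0.28 and Lamb3 1.07 in place of 0.22. For Lama3 the direction thus turned. Itga5 went from 1.42 to 0.73 and Itgb6 from -2.26 to -0.89, while Itgb1 at 0.96, Itga6 at 0.63 and Itgav at 0.35 moved little. Without the cells high in acinar genes, the ratio over all kept cells was -0.55 for Lama3, -0.02 for Lamb3, 0.92 for Itgb1 and 1.16 for Itga5.

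**Figure D4:**
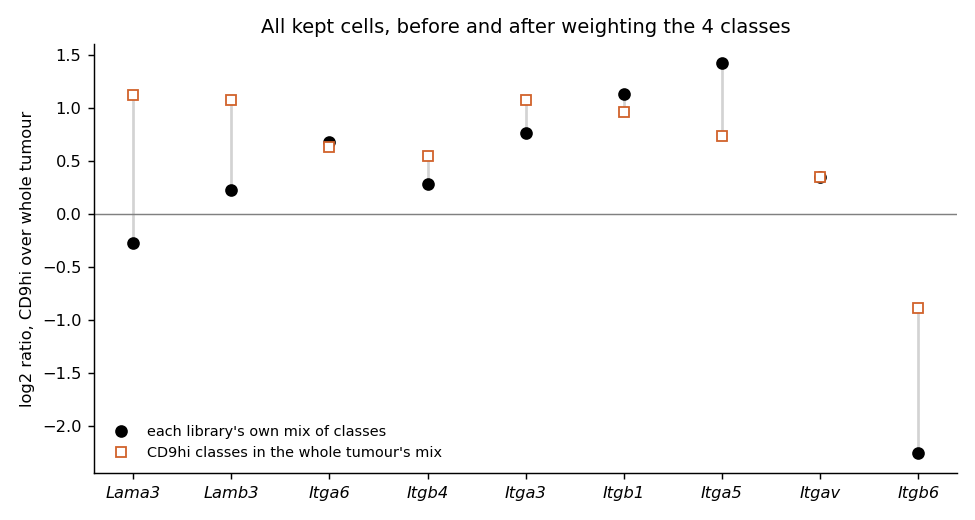
Log2 ratio of CD9hi over whole tumour in all kept cells (black circles) and with the CD9hi classes weighted as in the whole tumour (open squares), 1 value per member. Lama3 goes from -0.28 to 1.12 and Itgb6 from -2.26 to -0.89, and Itgav stays at 0.35.

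Krt17-high cells were few, and their values carry wide counting intervals. Lama3 was 110 CPM in 30 whole-tumour cells (82.2 to 144) and 392 CPM in 13 CD9hi cells (314 to 483), and Lamb3 125 and 423 CPM. Their log2 ratios were 1.83 (1.32 to 2.36) and 1.76 (1.28 to 2.25). Itga3 at 1.10, Itgb1 at 1.31 and Itgb4 at 0.63 were also past 1.5-fold, which made 5 members higher beside 27.3% of all genes and 0 lower beside 22.6%, with 49.9% called either way. Itgb6 rested on 5 and 2 UMIs, with a ratio of -0.06 (-3.64 to 2.36).

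With Krt17-high set at 500 CPM, which gave 108 and 41 cells, Lama3 was 149 and 291 CPM and Lamb3 130 and 341 CPM, with ratios of 0.97 (0.71 to 1.23) and 1.39 (1.13 to 1.65). The Lama3 ratio was thus lower by more than 1.5-fold at the wider threshold. At the threshold of 1500 CPM, Krt17-high cells had Epcam at 3702 CPM (whole tumour) and 5189 CPM (CD9hi), and Vim at 491 and 1644 CPM.

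Against the other cells of its library, the Krt17-high class was higher in Itga5 (log2 ratio 1.39), Itgb4 (0.90), Lamb3 (0.74), Lama3 (0.70) and Itga3 (0.70) in the whole tumour, 5 of 9 members beside 22.7% of genes. Itgb6 was lower at -0.65 with an interval of -2.41 to 0.44, beside 10.1% (32.8% either way), and the median gene stood at 0.20. In the CD9hi library it was higher in Lama3 (2.81), Lamb3 (2.27), Itgb6 (1.55 on 2 UMIs, -1.82 to 3.09), Itgb4 (1.24) and Itga3 (1.03), 5 members beside 26.8%, and lower in Itga6 (-0.63), beside 16.6%, with 43.4% either way. Most Krt17-high cells were also Epcam-high and Vim-low. Beside that class in the whole tumour, Lama3 was 110 and 97.9 CPM, with overlapping intervals. Itgb4 was 159 and 94.5 CPM, and Itga5 63.5 and 19.8 CPM. In the CD9hi library Lama3 was 392 and 272 CPM, and Itgb4 245 and 176 CPM. In the whole tumour the count of 6 called members became 3 when ratios were centred on the median, when cells high in acinar genes were left out or when cells were thinned. By Krt17 of the cell, Lamb3 in the CD9hi library went 80.0, 229, 308 and 424 CPM from no UMI to 1500 to 5000 CPM, and in the whole tumour 71.1, 96.4, 132 and 125 CPM.

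Other genes of the same matrix and adhesion systems were read from 6 lists, which hold the members too. Of 12 measured genes of laminins and basement membranes, 7 were higher by 1.5-fold in the CD9hi library over all kept cells and 0 lower, beside 17.1% and 13.4% of all genes, with a median ratio of 0.74 beside 0.13. The highest were Nid1, a linker of laminin to collagen IV, from 3.59 to 63.7 CPM, and the collagen IV chain Col4a2, from 19.99 to 72.5 CPM. The lowest were Lamb2 at -0.32 and Lama3. Nid1 in the CD9hi library stood at 80.8 CPM in Vim-high Epcam-low and 5.99 CPM in Epcam-high Vim-low cells, an order opposite to that of Lama3 there.

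Among the 11 integrin subunits measured, 5 had higher and 2 had lower levels, beside 17.1% and 13.4% of all genes (median ratio 0.35). The lower ones were Itgb6 and Itga1, a collagen receptor chain, from 8.71 to 1.44 CPM. In Epcam-high Vim-low cells the list counted 5 and 2, beside 11.7% and 12.3%, with a median of 0.12 beside 0.06 for all genes. In both-high cells it counted 0 and 2 of 10, beside 8.39% and 9.33%.

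Of 6 measured genes of hemidesmosomes and their partners, 3 were higher over all kept cells and 0 lower, beside the same 17.1% and 13.4%, with a median of 0.58. Dst (dystonin) had a ratio of 1.19 and Plec (plectin) 1.11, and the keratin Krt14 had 0.25. In Epcam-high Vim-low cells 5 of 6 were higher, beside 11.7%. In both-high cells 0 were higher and 1 lower, beside 8.39% and 9.33%. In Vim-high Epcam-low cells, where 5 were measured, neither direction had any, beside 8.89% and 8.61%.

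Among 6 other laminin receptors, 1 was higher over all kept cells, the syndecan Sdc2 at 1.53, and 0 lower, which is near the background of 17.1% and 13.4%. Bcam, a receptor of laminin alpha-5, had -0.57, and dystroglycan, Dag1, -0.40. Sdc1, the epithelial syndecan, was 658, 1320 and 603 CPM in Epcam-high Vim-low, both-high and Vim-high Epcam-low cells of the whole tumour, highest in both-high cells as Itgb4 was.

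Among 11 measured ligands of alpha-v and alpha-5 integrins, the counts were 4 up and 2 down by the rule, beside 17.1% and 13.4% of all genes, and the median ratio was 0.34. Tgfb1, whose latent form alpha-v/beta-6 activates, had 1.26 and Tgfb2 1.17, while osteopontin, Spp1, had -0.82 and Ccn1 -0.92. In both-high cells none was up and 4 were down, beside 8.39% and 9.33%, at a median ratio of -0.38. In Vim-high Epcam-low cells the counts were 1 and 4, beside 8.89% and 8.61%.

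Of 18 measured adaptors and kinases of integrin adhesions, 8 were above and 1 below by the rule, beside 17.1% and 13.4% of all genes (median ratio 0.39). The tensin Tns4 had 1.38 and the kindlin Fermt2 1.04, while Fermt1, the kindlin of epithelia, had -1.01, from 229 to 114 CPM, and the talin Tln2 -0.39. Tns4 in Epcam-high Vim-low cells was 35.4 CPM (whole tumour) and 168 CPM (CD9hi). Fermt2 stood at 41.2 and 66.9 CPM there and at 109 and 111 CPM in Vim-high Epcam-low cells.

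Over the 8 points of 2 libraries and 4 classes, Pearson's r of log2(CPM + 1) was taken as a description of likeness among 2860 genes at a mean of 50 CPM or more. The points share library and depth, so r carries no test. Among members it was 0.95 for Lama3 with Lamb3, 0.95 for Lamb3 with Itgb4, 0.66 for Itga6 with Itgb4, 0.86 for Itga3 with Itgb1 and 0.95 for Itgb1 with Itga5. Itga5 had 0.93 with Vim and Itgb6 -0.82, but Vim defines the classes, so these values restate the class comparison. Itgav with Itgb6 had -0.25.

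The genes most like Lama3 were Serpinb5 (0.99), F11r (0.98) and Ctsh (0.98), and among those most like Lamb3 were Rsrc2 and Kctd5, each at 0.97. F11r encodes a tight junction protein. For Itgb4 they were Sdc1, C77080 and Fut8, for Itga3 Smox, Csnk1g2 and Tmem63b, for Itga6 Ndrg1, Actn4 and Ctbp1, and for Itgb1 Degs1, Rap1b and Spop. Itga5 was most like Myadm, Wls and Vcan, Itgav most like Sh3pxd2b, Polr1d and Gsk3b, and Itgb6 most like Tmem238, Ly6a and Afdn, at 0.96, 0.96 and 0.93.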

How the data were processed

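Each of the 2 libraries came as a matrix of whole-number UMI counts, deposited without normalization. The submitters' processing notes name Cell Ranger 7.0.0 and build GRCm39, whereas version 6.1.2 stands in the matrices, per the file headers. The treatment of intronic reads is not given in the sources used here.

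A barcode was kept if it had 500 genes, 1000 UMIs and no more than 20% of UMIs from mt- genes. This left out 532 of 3082 whole-tumour and 408 of 5500 CD9hi barcodes. Counts were summed per library and class and divided by the class total to give CPM. Ratios are log2 with 0.5 counts added. Intervals are 95%: exact Poisson for levels, conditional binomial for ratios and Clopper-Pearson for shares. All intervals cover counting error only. The CPM come from 3′ tags and were not compared between genes. A gene was measured in a comparison at a mean of 5 CPM over its 2 sums, and called at 1.5-fold. Detection was also taken after thinning to 5000 UMIs. Acinar-marker cells had at least 20000 CPM of 13 acinar genes, with Epcam and Vim low. Doublets were not removed. As an alternative, the highest Scrublet scores, at 0.8% per 1000 barcodes, took out 63 and 224 cells, 60 of the latter in both-high cells, since the automatic call marked only 0.549% and 0.0196%.

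All 9 members are named, with the 2 highest and 2 lowest measured genes of each list over all kept cells and the 3 genes most like each member, apart from items that are not reported here. Members, lists and tests were chosen with earlier results of these data known. The Krt17 threshold of 1500 CPM was taken from that for Epcam and Vim. The interval code was checked on simulated counts. Work was done in Python 3.11.15 with numpy 2.4.6, scipy 1.17.1, pandas 2.3.3 and scanpy 1.11.5.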

Additional observations from a re-analysis of the deposited data

Results flagged for a closer look

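The laminin chains differed between the libraries in opposite directions according to the class of cell, and this difference between classes was not tested, since each group has 1 library. Lama3 had a log2 ratio of CD9hi over whole tumour of 1.83 in Krt17-high cells and 1.48 in Epcam-high Vim-low cells, against -1.21 in Vim-high Epcam-low cells. Lamb3 had 1.76 and 1.57, against -0.62. The lower level did not hold in every interval of Epcam. Among Vim-high cells under 500 CPM of Epcam, Lama3 was at 0.21 and Lamb3 at -0.01, with intervals that cover 0. The ratios were -0.79 and -0.31 at 500 to 1500 CPM. With no Epcam UMI they were -2.24, on 2 and 23 UMIs, and -0.97. Cells low in Malat1, a nuclear RNA, were 16.7% of the CD9hi and 2.28% of the whole-tumour Vim-high Epcam-low cells; without them Lama3 was at -1.03 and Lamb3 at -0.45 in that class.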

How the results depend on the processing

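No paired analysis was possible because each group has 1 library. Of 134 alternative counts of called members, 128 were within 1.5 times the count reported. For Krt17-high against other cells of the whole tumour the count of 6 became 3 when centred on the median ratio, 3 without cells high in acinar genes and 3 when thinned to 5000 UMIs. Over all kept cells 5 became 3 without cells high in acinar genes. In Vim-high Epcam-low cells 2 became 1 without cells low in Malat1, and in both-high cells 1 became 2 with the threshold at 1000 CPM. An unchanged count can hide a change of member. In Vim-high Epcam-low cells the count of 2 was 1 higher and 1 lower with the mean over cells of cell CPM. Lamb3 was lower by 1.5-fold there in 8 of 12 alternatives, with ratios from -0.75 to -0.33, and Lama3 in 12 of 12. The causes were not tested. Of 1206 alternative ratios of members, 7 called ratios reversed. For Itgb6 in Krt17-high against other whole-tumour cells, which rests on 5 UMIs, the ratio was 0.20 with 5 counts added, 0.54 thinned, 0.89 at a Krt17 threshold of 5000 CPM and 0.080 at 1 UMI. At 5000 CPM, with 1 cell in each library, CD9hi against whole tumour gave -0.23 for Itgb4 and -0.038 for Itgb1, and Itga6 in Krt17-high against other CD9hi cells gave 0.25. Of 99 ratios of members, 53 were called and 41 of these stayed past 1.5-fold in the same direction under every alternative run for them. The weighting of classes, the 1-UMI threshold and the removal of immune- or fibroblast-marker cells were added after seeing the data. Low counts limit Itgb6 in Vim-high Epcam-low cells, and the small number of cells (30 and 13) widens the intervals in Krt17-high cells.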
